A study of Homo sapiens with 3 samples.

Results

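The transcripts described here are those of the human mitochondrial genome, taken as every gene whose symbol starts with MT-. This gave 15 of the 50868 genes counted: 13 protein-coding genes and 2 ribosomal RNA genes. None of the 22 annotated mitochondrial tRNA genes was listed under such a symbol, so they were not analysed here. RNA came from NCI-H23, an established human lung adenocarcinoma cell line, in 3 libraries. One library was from cells transfected with control siRNA, and 2 were from cells that received USP16 siRNA. USP16 is a deubiquitinase of histone H2A. The siUSP16 libraries are numbered 1 and 2 as in their labels. These do not say whether the number marks a different siRNA, a separate culture or a repeat of the same culture. The spread of these libraries may therefore be technical. The study's question is how gene expression differs with USP16 knockdown.

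The mitochondrial genome is a small circle that is transcribed from both strands into long precursors. The precursors are cut mostly at the tRNAs that lie between the genes, which releases 2 rRNAs of the mitochondrial ribosome and mRNAs for core subunits of respiratory chain complexes I, III and IV and of the ATP synthase, complex V. Nearly all coding genes and both rRNAs are read from one strand, and MT-ND6 alone among the coding genes from the other. Most of these mRNAs receive a short poly(A) tail, whereas the MT-ND6 mRNA is known to lack one. Since members come from shared precursors, they are not independent of each other.

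All 15 genes lie on chromosome M of hg38, and the positions and the sequences below are those of GENCODE release 29, which is on that build. Sequences are written 5′ to 3′. Of the 13 coding transcripts, 6 end before the stop codon is complete and depend on the poly(A) tail to complete it, the other 7 encode a whole codon in that place. The last 30 bases of 5 transcripts are shown so that both kinds of 3′ end can be seen, with MT-ND6 as the one read from the other strand. Capitals mark the last, full or partial, codon, and the MT-ND6 sequence is that of the minus strand.

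MT-ND4 (chrM:12108-12137): accccgacatcattaccgggttttcctctT
MT-CO3 (chrM:9961-9990): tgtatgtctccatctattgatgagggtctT
MT-CYB (chrM:15858-15887): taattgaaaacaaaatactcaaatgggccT
MT-CO2 (chrM:8240-8269): tttgaaatagggcccgtatttaccctaTAG
MT-ND6 (chrM:14149-14178, minus strand): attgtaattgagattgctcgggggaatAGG

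Some neighbouring reading frames share bases. MT-ATP8 and MT-ATP6 share 46 bases, MT-ND4L and MT-ND4 share 7, and MT-ATP6 and MT-CO3 share 1. Each of the first 2 pairs is known to stay on 1 mRNA. The junctions are shown because reads across them belong to both genes, and the handling of such reads is not given in the sources used here. Capitals mark the shared bases.

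MT-ATP8 to MT-ATP6 (chrM:8497-8586): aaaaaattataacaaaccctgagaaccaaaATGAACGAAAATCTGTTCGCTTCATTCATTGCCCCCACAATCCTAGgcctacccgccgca
MT-ND4L to MT-ND4 (chrM:10730-10780): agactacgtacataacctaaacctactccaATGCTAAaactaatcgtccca

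Library totals ranged from 13956382 to 15071179 counts. USP16 counts were 632 for the control, 109 for siUSP16 library 1 and 245 for siUSP16 library 2, or 47.4, 7.68 and 15.7 CPM (counts for every 1000000 library counts) after scaling by trimmed means of M-values (TMM). Its log2 fold change was -2.09 ± 0.72 (SD, n = 2; edgeR quasi-likelihood test, adjusted p = 0.562). Among markers fixed for the cell type, the epithelial keratins KRT18 (2903, 1986 and 3364 counts) and KRT8 (2214, 1118 and 1880) were well counted. The other epithelial markers were low, with 38, 161 and 232 counts for EPCAM, 142, 39 and 93 for CDH1 and 62, 55 and 52 for KRT19. These 5 epithelial markers together made 383, 241 and 373 CPM of the library total. Leukocyte and endothelial markers had at most 13 counts in any library, with CD3E at 0 in all of them. The fibroblast markers together made 67.3, 65.6 and 56.3 CPM of that total, mostly from COL1A1, while LUM had 20, 26 and 140 counts. The mesenchymal marker VIM, which carcinoma lines can also express, was the most counted marker, with 20066, 19284 and 7957 counts. VIM had log2 values of -0.15 and -1.56, and its part in the mitochondrial result was not tested. CDH2, also on the mesenchymal list, had 10, 23 and 10 counts.

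Mitochondrial genes were a large part of every library. In the control 8 of the 10 most counted genes of the whole table were mitochondrial, and 7 of 10 were in each siUSP16 library. MT-RNR2, the large subunit rRNA, ranked first in every library and MT-CO1 second. At the other end, MT-ND6 ranked 812 in the control, 1349 in siUSP16 library 1 and 545 in siUSP16 library 2. Every member passed the filter on low counts in the fit of all genes.

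The share of counts on the mitochondrial genome was 13.3% lower in siUSP16 library 1 and 14.4% lower in siUSP16 library 2 than the control's 8.56% (95% Wilson interval 8.54 to 8.57). The protein-coding genes took 6.76% of counts in the control (6.75 to 6.77), 5.59% in siUSP16 library 1 (5.58 to 5.60) and 5.47% in siUSP16 library 2 (5.46 to 5.48). The 2 rRNAs took 1.79% (1.79 to 1.80), 1.82% (1.82 to 1.83) and 1.85% (1.85 to 1.86). Thus the coding share was lower in both siUSP16 libraries and the rRNA share slightly higher. The mitochondrial share was 7.37% ± 0.06 (SD, n = 2) in the siUSP16 libraries, and the control lay outside that spread. With 1 library against 2 an exact permutation test cannot give a p below 0.333 (one-sided), so no p is given for shares, and the intervals cover counting error only. The shares of the nuclear-retained RNAs MALAT1, NEAT1, MEG3, SNHG14, TUG1 and KCNQ1OT1 together were 0.0467%, 0.0503% and 0.0848%, and their part in the mitochondrial result was not tested. In bulk RNA, fewer mitochondrial genomes in a cell and less RNA from each cannot be told apart.

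**Figure D1:**
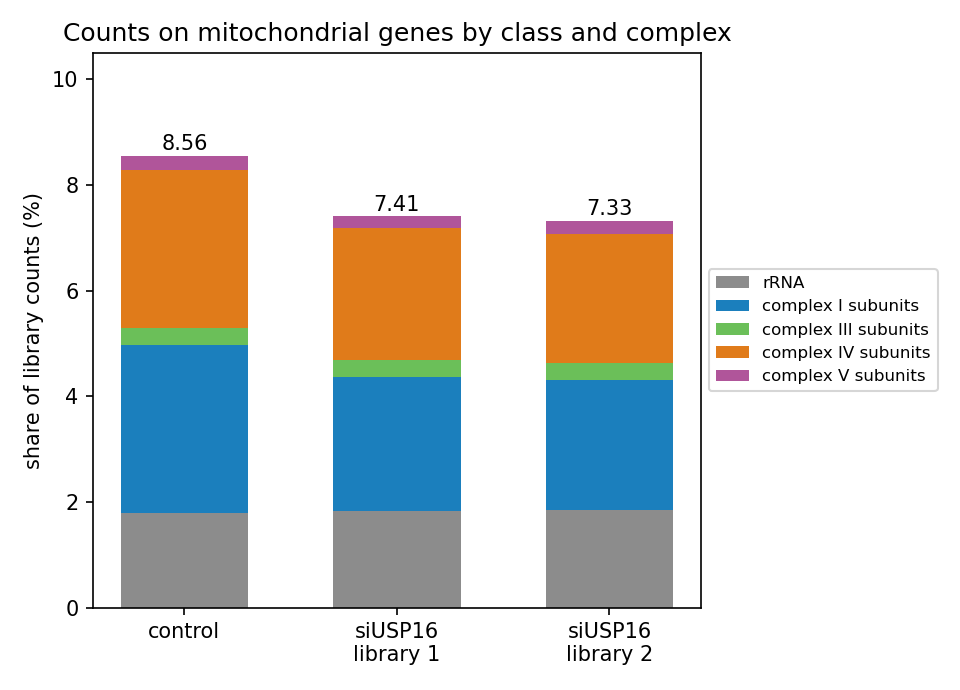
Stacked bars give the share of library counts (%) on mitochondrial rRNAs and on the subunits of each respiratory chain complex, with the total above each bar, for the control and the 2 siUSP16 libraries (1 library a bar). The total is 8.56% in the control and 7.41% and 7.33% in the siUSP16 libraries, while the rRNA segment keeps about the same height.

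By complex, most of the difference in percentage points was in the subunits of complexes I and IV, which hold most of the coding counts. The 7 complex I genes took 3.19% of counts in the control, 2.54% in siUSP16 library 1 and 2.45% in siUSP16 library 2. The 3 complex IV genes had 419526, 349275 and 368674 counts, which in the siUSP16 libraries is 2.50% and 2.45% of the total. For complex V, with 2 genes, the shares were 0.272%, 0.224% and 0.256%, lower in both siUSP16 libraries with library 2 nearer the control. As ratios to the control share, complex V was at 0.825 and 0.941, complex IV at 0.836 and 0.817 and complex I at 0.796 and 0.769. The only complex III gene, MT-CYB, took 0.308%, 0.326% and 0.318%, with the control the lowest.

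Counted within mitochondrial transcripts alone, which removes the scaling of libraries, the rRNAs made up 21.0% of mitochondrial counts in the control (Wilson 20.9 to 21.0), 24.6% in siUSP16 library 1 (24.5 to 24.7) and 25.3% in siUSP16 library 2 (25.2 to 25.4). Complex I genes made up 37.2%, 34.2% and 33.5%, and complex IV genes 35.0%, 33.8% and 33.4%. MT-CYB had 3.60%, 4.40% and 4.34% of mitochondrial counts. In each of these groups the control lay on one side of both siUSP16 libraries and further from them than they lay from each other. Complex V genes had 3.18%, 3.03% and 3.50%, where the siUSP16 libraries lay on either side of the control.

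None of the 15 genes passed an adjusted p of 0.05, against 0.0174% of the 17287 genes tested (edgeR quasi-likelihood test, Benjamini-Hochberg adjustment over all genes). None had an unadjusted p under 0.05 either, where 4.88% of all genes did. DESeq2 also gave counts of 0 for the members, where it called 0.0897% of genes at an adjusted p of 0.05 and 2.97% at an unadjusted p under 0.05. The adjusted p was 0.999 for each member in edgeR. With 1 residual degree of freedom, the spread within a group came from the siUSP16 libraries alone, and the test moderated it over all genes. On the scale of log2 CPM after TMM scaling (prior count 2), the control lay above both siUSP16 libraries for 13 of 15 members, against 33.5% of all genes tested, and below both for 1 member, against 33.4%. Both comparisons share the control library. Taken one at a time, 14 members were below the control in siUSP16 library 1, where 49.9% of all genes were, and 13 in siUSP16 library 2, where 50.3% were. The median log2 fold change of the members was -0.34 in siUSP16 library 1 and -0.29 in siUSP16 library 2, beside 0.00 in each over all genes. No member reached a 2-fold difference in either library, where 5.55% of all genes were at least 2-fold lower in siUSP16 library 1 and 8.97% in siUSP16 library 2.

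**Figure D2:**
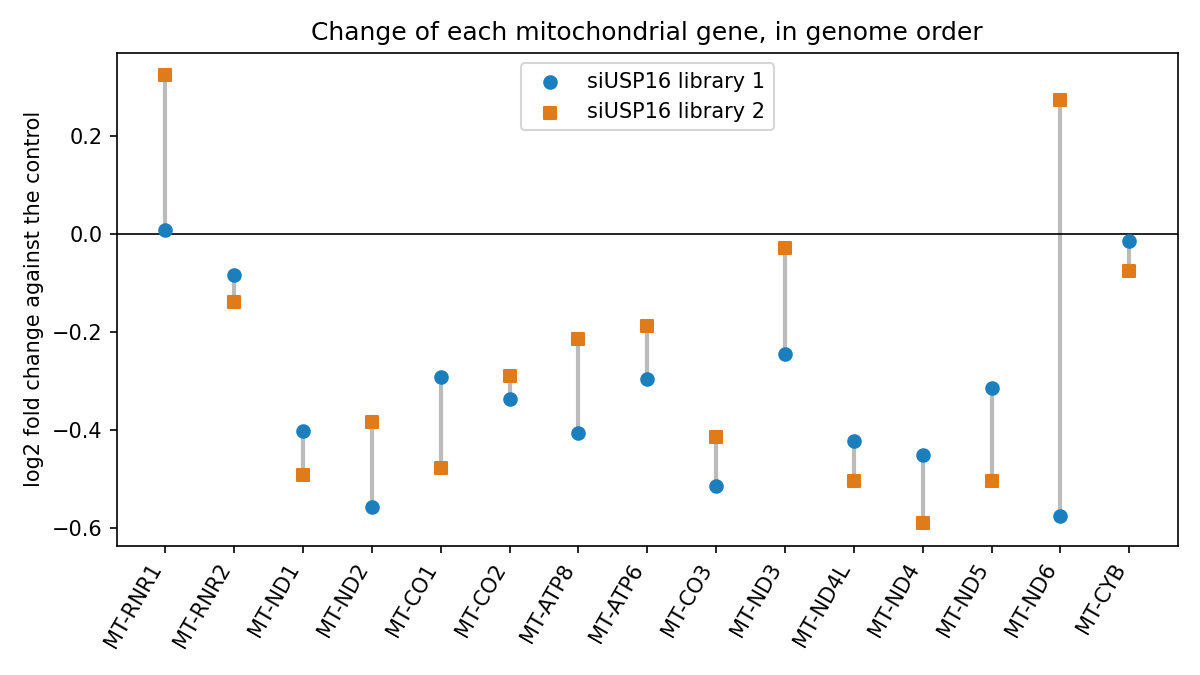
Points give the log2 fold change against the control (log2 CPM, TMM scaled) of each mitochondrial gene in genome order, circles for siUSP16 library 1 and squares for siUSP16 library 2, joined by a grey line. Values lie between -0.59 and 0.32, with MT-RNR1 and MT-CYB near or above 0 in library 1 and MT-ND6 split between the libraries.

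Complex I, the NADH dehydrogenase that feeds electrons into the chain, has 7 mitochondrial subunits in its membrane arm. MT-ND4, a subunit that pumps protons, took 1.14% of counts in the control, 0.891% in siUSP16 library 1 and 0.822% in siUSP16 library 2. Both siUSP16 libraries lay below the control, and the log2 fold change of -0.52 ± 0.10 (SD, n = 2; edgeR unadjusted p = 0.0778) was the lowest mean of the 15. MT-ND4L, which shares its mRNA with MT-ND4, took 0.270%, 0.215% and 0.206% (-0.42 and -0.50 in libraries 1 and 2). MT-ND1, a subunit at the quinone site, took 0.459%, 0.371% and 0.354% (-0.40 and -0.49). MT-ND2, a further pump subunit, took 0.528%, 0.384% and 0.440% (-0.56 and -0.38), and MT-ND5, the outermost pump subunit, took 0.728%, 0.625% and 0.557% (-0.31 and -0.50). For these 5 genes the control was the highest of the 3 libraries, while the order of the siUSP16 libraries differed from gene to gene. MT-ND3 had a smaller distance, with 0.0395%, 0.0356% and 0.0420% of counts and log2 values of -0.24 and -0.03, the latter on the other side of the control when the shares themselves are compared.

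MT-ND6, the complex I subunit read from the other strand, was the member on which the siUSP16 libraries differed most. It had 3003 counts in the control, 2144 in siUSP16 library 1 and 4240 in siUSP16 library 2, or 0.0214%, 0.0154% and 0.0281% of the library. The control lay between the siUSP16 libraries, at log2 values of -0.58 and 0.27. The distance between siUSP16 libraries was 0.85 on the log2 scale for MT-ND6 and at most 0.32 for any other member. Its neighbour MT-ND5 had 34.0 counts for each MT-ND6 count in the control (95% exact binomial interval 32.7 to 35.2), 40.7 in siUSP16 library 1 (39.0 to 42.5) and 19.8 in siUSP16 library 2 (19.2 to 20.4). Whether the authors' counting used strand is not given in the sources used here, so reads from the opposite strand cannot be told apart from MT-ND6 reads.

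Complex IV is cytochrome c oxidase, whose catalytic core is made of 3 mitochondrial subunits. MT-CO1, which holds the oxygen-reducing site, had 208534 counts in the control, 181270 in siUSP16 library 1 and 175040 in siUSP16 library 2 (log2 -0.29 and -0.48). MT-CO2, which receives electrons from cytochrome c, took 0.784%, 0.663% and 0.696% (-0.34 and -0.29). MT-CO3, the third core subunit, took 0.722%, 0.541% and 0.588% (-0.51 and -0.41). In all 3 genes both siUSP16 libraries lay below the control, MT-CO1 with the lower value in library 2 and the others with the lower value in library 1. The log2 means were -0.38 ± 0.13 for MT-CO1, -0.31 ± 0.03 for MT-CO2 and -0.46 ± 0.07 for MT-CO3 (SD, n = 2).

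Complex III and complex V have fewer mitochondrial subunits. MT-CYB encodes cytochrome b, the subunit of complex III that carries its quinone sites, and had log2 values of -0.02 and -0.08 after TMM scaling. With library totals alone its direction flips, to 0.0616 in the edgeR fit, so no direction holds for MT-CYB. The ratio of MT-ND4 to MT-CYB counts, which no scaling touches, was 3.70 in the control (95% exact binomial interval 3.66 to 3.74), 2.74 in siUSP16 library 1 (2.71 to 2.76) and 2.59 in siUSP16 library 2 (2.56 to 2.62). This pair sets the member with the lowest mean against the coding gene that changed least, so a gap was set by the choice of pair. The control lay between the siUSP16 libraries for MT-CO1 to MT-CO3 (2.06, 2.40 and 1.97) and MT-ND2 to MT-ND1 (1.15, 1.04 and 1.24). The same held for MT-CO1 to MT-CO2 and MT-ND5 to MT-ND6. The control lay outside them for MT-RNR2 to MT-RNR1, MT-ND4L to MT-ND4 and MT-ATP8 to MT-ATP6. MT-ATP6, the proton channel subunit of the ATP synthase, took 0.0788%, 0.0685% and 0.0751% of counts (-0.30 and -0.19). MT-ATP8, a small subunit of the same enzyme, took 0.193%, 0.156% and 0.181% (-0.41 and -0.21).

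The 2 rRNAs differed from each other. MT-RNR2 took 1.57%, 1.58% and 1.54% of library counts, with log2 values of -0.08 and -0.14 after TMM scaling, so that in library 1 the scaling decides on which side of the control it lies. MT-RNR1, the small subunit rRNA, took 0.228%, 0.245% and 0.310% (0.01 and 0.32), with siUSP16 library 2 the highest and library 1 close to the control. There were 6.86 MT-RNR2 counts for each MT-RNR1 count in the control (95% exact binomial interval 6.78 to 6.94), 6.43 in siUSP16 library 1 (6.36 to 6.51) and 4.98 in siUSP16 library 2 (4.93 to 5.03). Mitochondrial rRNAs carry short tails, and an mRNA kit was used, so the counts measure what was captured. Of 11 other listed RNAs without a long poly(A) tail, 5 were among the genes counted, and these were scarce. RN7SK had 13, 4 and 17 counts, RN7SL1 had 9, 13 and 9, and the 5 together had 23, 22 and 32. The rest of that list could not be read.

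Levels between genes were compared as unscaled CPM (from library totals, without TMM factors) per kilobase of gene. In the siUSP16 libraries MT-RNR2 (mean 10015 ± 151), MT-CO2 (9939 ± 343), MT-ATP8 (8136 ± 855) and MT-CO1 (7977 ± 630) were the highest (SD, n = 2), followed by MT-CO3, MT-ND4L, MT-ND4, MT-ND2, MT-ND1, MT-ND5, MT-RNR1, MT-CYB, MT-ND3, MT-ATP6 and MT-ND6 (414 ± 172). Of the 14 neighbouring pairs in this order, 7 had ranges over the siUSP16 libraries that overlap. These were MT-RNR2 with MT-CO2, MT-ATP8 with MT-CO1, MT-CO3 with MT-ND4L, MT-ND2 with MT-ND1, MT-ND5 with MT-RNR1, MT-RNR1 with MT-CYB, and MT-ND3 with MT-ATP6. The other 7 pairs kept their order in all 3 libraries. The highest gene was 28.1 times the lowest in the control, 34.6 times in siUSP16 library 1 and 19.0 times in siUSP16 library 2.

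**Figure D3:**
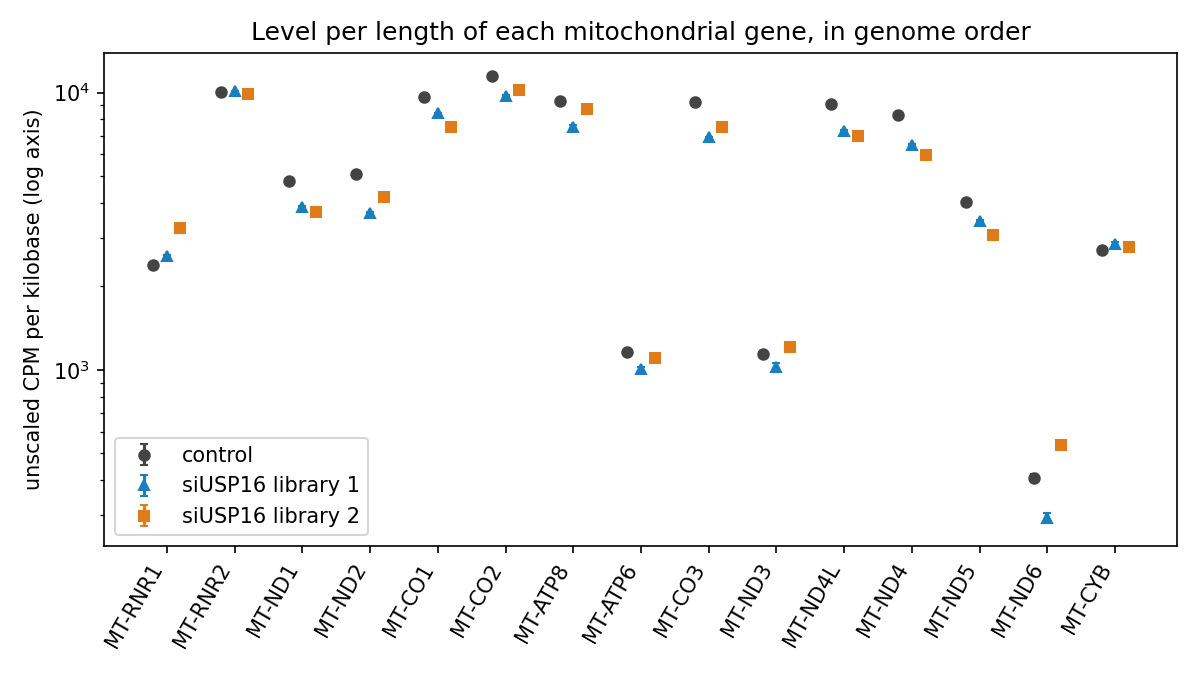
Points give unscaled CPM per kilobase (log axis) of each mitochondrial gene in genome order for the control and the siUSP16 libraries, with bars for the 95% exact Poisson interval, mostly smaller than the point. MT-ATP6 lies between 1006 and 1157 and MT-ATP8 between 7531 and 9341, although their reading frames overlap, and MT-ND6 is the lowest in each library.

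Counts per length of genes on the same mRNA did not always match, and reads in their shared bases leave these levels uncertain. MT-ND4L and MT-ND4 were close, at a ratio per kilobase of 1.10 in the control and 1.12 and 1.17 in the siUSP16 libraries. MT-ATP8, however, was 8.07 times MT-ATP6 per kilobase in the control, 7.49 times in siUSP16 library 1 and 7.92 times in siUSP16 library 2. The control level per length was 9341 (exact Poisson interval 9230 to 9453) for MT-ATP8 and 1157 (1135 to 1179) for MT-ATP6. With counts on their nuclear copies (described below) added, the gap was smaller. MT-ATP8 was then at 9361, 7546 and 8757 and MT-ATP6 at 2699, 2520 and 2528. MT-ATP6 then also lay above MT-ND3 (1141, 1029 and 1213) in every library, so its place in the order above depends on the copies.

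Nuclear copies of mitochondrial genes hold part of the same reads or reads very like them. The files list 365 such pseudogenes and MTRNR2-like genes by their symbols, of which 68 had a count above 0. Their summed counts were 58361, 50328 and 50435, or 4.87, 4.86 and 4.57 counts for every 100 mitochondrial counts. At least 96.6% of these counts in each library lay on 4 copies: MTCO1P12, MTATP6P1, MTND2P28 and MTND1P23. All 4 lie on the plus strand of chromosome 1, between positions 629062 and 634376 of hg38. Over the aligned part MTCO1P12 is 98.6% identical to MT-CO1, MTATP6P1 98.5% to MT-ATP6, MTND2P28 98.4% to MT-ND2 and MTND1P23 99.1% to MT-ND1.

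For 2 of these pairs the 90 bases with the most differences are shown, since only such positions let a read be assigned to one gene or the other. Capitals mark the 4 differing bases of each window.

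MT-CO1 (chrM:6210-6299): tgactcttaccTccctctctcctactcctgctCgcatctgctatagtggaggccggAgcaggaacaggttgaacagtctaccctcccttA
MTCO1P12 (chr1:631380-631469): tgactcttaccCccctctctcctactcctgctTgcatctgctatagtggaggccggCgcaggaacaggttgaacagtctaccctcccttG
MT-ATP6 (chrM:8629-8718): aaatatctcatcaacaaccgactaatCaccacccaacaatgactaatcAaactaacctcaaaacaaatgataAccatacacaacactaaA
MTATP6P1 (chr1:633798-633887): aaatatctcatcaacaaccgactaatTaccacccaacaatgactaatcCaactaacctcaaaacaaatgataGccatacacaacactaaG

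MTATP6P1 was counted more than its mitochondrial counterpart in every library, with 14705, 14388 and 14616 counts against 11035, 9561 and 11323 for MT-ATP6. That is 133, 150 and 129 counts for every 100 of MT-ATP6. MTCO1P12 had 28768, 24957 and 23579 counts, or 13.8, 13.8 and 13.5 for every 100 of MT-CO1, and MTND2P28 had 11.1, 11.0 and 10.6 for every 100 of MT-ND2. MTND1P23 had 7.32, 6.86 and 6.78 for every 100 of MT-ND1. These last 3 ratios were thus nearly level over the libraries. With its copies added, the level per length of MT-ATP6 came to 2699 for the control and to 2520 and 2528 for the siUSP16 libraries, still below MT-ATP8. Counting the copies as mitochondrial gave shares of 8.97%, 7.77% and 7.66% of the libraries, which are 13.4% and 14.6% lower in the siUSP16 libraries.

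**Figure D4:**
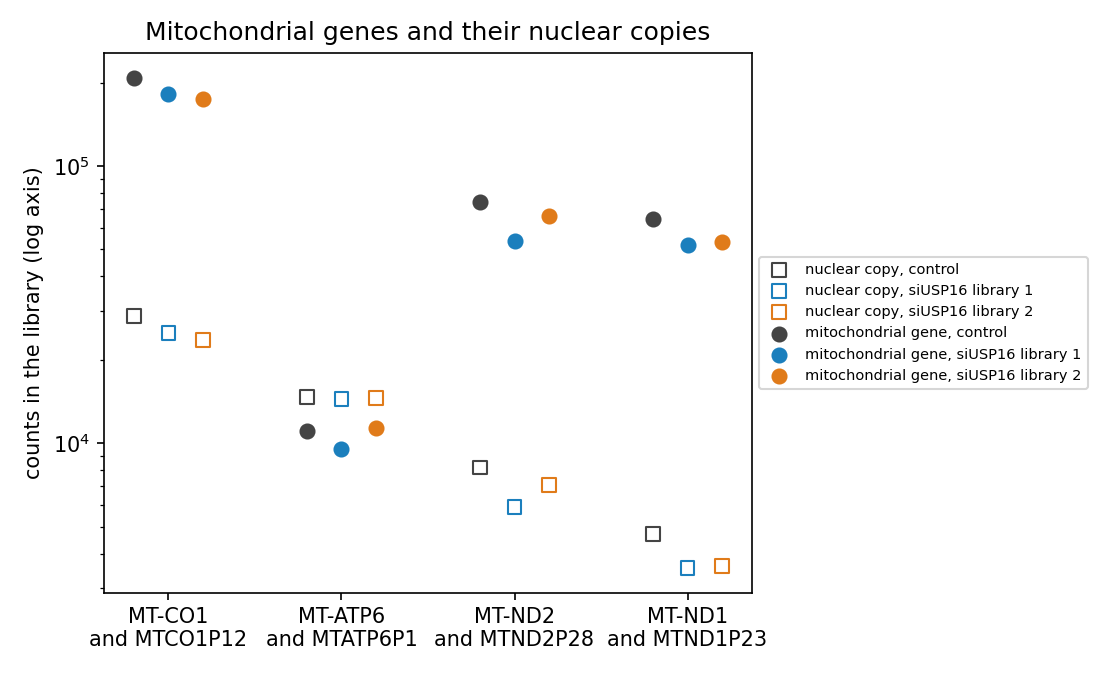
Filled circles give the counts in each library (log axis) of 4 mitochondrial genes and open squares those of their most counted nuclear copy, by library colour. The copy lies below the mitochondrial gene in 3 pairs and above it for MT-ATP6 and MTATP6P1, in each of the 3 libraries.

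The rest of the respiratory chain is encoded in the nucleus, and its subunits did not share one direction. Of 37 nuclear complex I subunits, the control lay above both siUSP16 libraries for 15 and below both for 12, against 33.5% and 33.4% of all genes tested, with medians of 0.00 and -0.13 in libraries 1 and 2. NDUFA8 (409, 709 and 789 counts in the control and siUSP16 libraries 1 and 2) had higher counts in both siUSP16 libraries, NDUFB2 (811, 531 and 485) lower ones, and NDUFA12 (572, 475 and 225) and NDUFA6 (906, 894 and 387) a lower count mainly in library 2. UQCR10 of complex III (472, 561 and 166 counts) was low in library 2 and COX7A2L (1119, 665 and 1387), named in the complex IV list, in library 1. Of the other complex III subunits, UQCRFS1, the iron-sulfur protein, had log2 values of -0.05 and -0.87, UQCRH of 0.25 and 0.38 and UQCR11 of -0.20 and -0.27. In complex IV, COX7C was at 0.49 and 0.11, COX6C at 0.29 and 0.22 and COX7B at 0.15 and 0.21. The medians were 0.06 and -0.27 for 9 complex III subunits, 0.04 and 0.10 for 12 complex IV subunits, and -0.13 and -0.08 for 16 complex V genes. In complex V, ATP5B (9887, 6957 and 6802 counts) and ATP5A1 (5215, 3838 and 3186), the beta and alpha subunits of its catalytic head, had log2 values of -0.60 and -0.76, and of -0.53 and -0.93. ATP5D, the delta subunit, was at -0.33 and -0.72. ATP5F1, a subunit of the stalk that holds the head in place, went the other way, with 1760, 3073 and 3293 counts and log2 values of 0.71 and 0.68. No nuclear subunit passed the threshold, with 0.0174% of all genes past it, and 1 of the 74 had an unadjusted p under 0.05, where 4.88% of all genes did. The difference between mitochondrial and nuclear subunits was not tested.

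**Figure D5:**
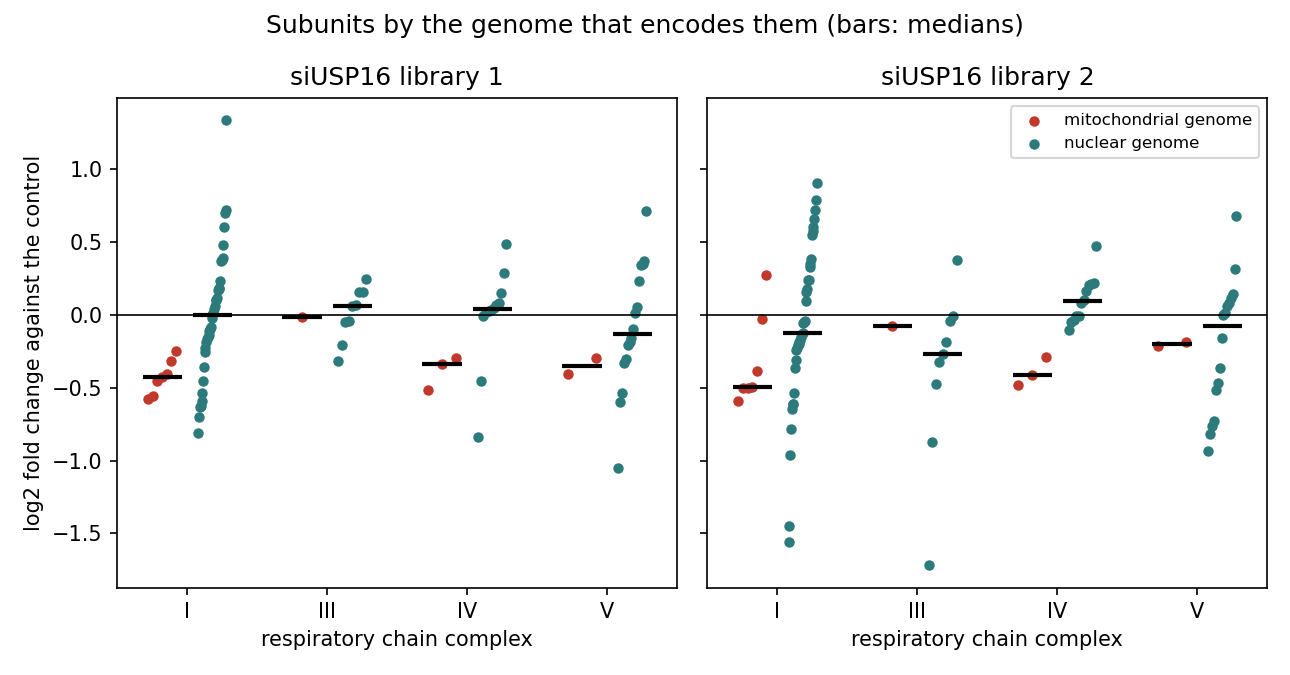
Points give the log2 fold change against the control of each subunit, by complex and by the genome that encodes it, in siUSP16 library 1 (left) and library 2 (right), with black bars for medians. The complex I medians are -0.42 and -0.49 for mitochondrial genes and 0.00 and -0.13 for nuclear genes, which spread widely around them.

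Genes that copy, transcribe and process the mitochondrial genome were also read. Of 10 transcription factors and enzymes, the control lay above both siUSP16 libraries for 3 and below both for 1, against 33.5% and 33.4% of all genes tested, with medians of -0.12 and 0.02. POLRMT, the mitochondrial RNA polymerase, had 910, 908 and 786 counts, and TEFM, its elongation factor, had 110, 216 and 175 (log2 0.87 and 0.44). MTERF1, a termination factor, was at -0.75 and -0.26, and MRPL12, a ribosomal protein that also binds the polymerase, at -0.47 and -0.18. Of 33 genes for processing and stability of mitochondrial RNA, 10 were below the control in both siUSP16 libraries and 10 above it in both, against the same 33.5% and 33.4%, with medians of 0.05 and -0.08. LRPPRC, which stabilises mitochondrial mRNAs, had 7399, 10025 and 15328 counts (0.35 and 0.83). GRSF1, a protein of the mitochondrial RNA granule, had 1751, 1405 and 1031 (-0.41 and -0.99), and TRNT1, which adds CCA to tRNAs, was at 0.51 and 0.50. PTCD1 was at -0.74 and -0.94, and it overlaps ATP5J2 and the readthrough gene ATP5J2-PTCD1 on the same strand, so its reads are uncertain.

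Of 17 genes for maintenance of mitochondrial DNA, 6 lay below the control in both libraries and 5 above it in both, where 33.5% and 33.4% of all genes did, with medians of -0.05 and -0.04. TOP1MT, the mitochondrial topoisomerase, had 913, 2541 and 2224 counts (1.38 and 1.06; edgeR, adjusted p = 0.985). FEN1, a flap nuclease that also acts in nuclear replication and that overlaps FADS2, was at -0.61 and -1.87. RNASEH1, which removes RNA from hybrids, was at -0.61 and -0.56, and TOP3A, a decatenating topoisomerase, at -0.49 and -0.70. Of 11 regulators of mitochondrial biogenesis, 1 lay below the control in both libraries and 5 above it, beside the same shares of all genes, with medians of 0.22 and 0.14. Among them GABPB1 was at 0.08 and 1.32, ESRRA at 0.50 and 0.70, NRF1 at -0.17 and -0.88 and YY1 at 0.14 and -1.15. GABPB1 overlaps the antisense gene GABPB1-AS1, which had 628, 1980 and 3917 counts, and RNASEH1 overlaps RNASEH1-AS1, with 251, 434 and 509. As the use of strand is not given, reads of these pairs cannot be told apart where they overlap. The same holds for ESRRA and TRMT112, TRNT1 and CRBN, ATP5A1 and HAUS1, ATP5F1 and WDR77, COX6C and VPS13B, and NDUFB2 and BRAF. It also holds for FEN1 and TMEM258, PTCD1 with BUD31 and CPSF4, and TEFM and ADAP2, where ADAP2 had 126, 111 and 177 counts. NDUFB2 further overlaps ADCK2 on the same strand. No gene of these 4 lists passed the threshold, beside 0.0174% of all genes, and 2, both in the maintenance list, had an unadjusted p under 0.05, beside 4.88%.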

How the data were processed

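Per the labels' protocols, libraries were made from DNase-treated RNA with an mRNA kit. The authors deposited 1 table of raw read counts a library, unscaled as far as its whole numbers show. Tools listed in the submitters' processing notes are StringTie 1.3.0 and HISAT2 2.0.4, with hg38 as the build. How reads were counted, and whether by strand, is not given in the sources used here. The column header of siUSP16 library 2 has the number 6, and the sample was used as labelled. Members and lists were chosen with earlier results of these data known. Named were every member, USP16, the 4 most counted nuclear copies and up to 4 genes of each list with the largest mean change among those with a mean of at least 100 counts, and NDUFA8 was named after its values were seen. 1 gene the rule names is not reported here. Genes past filterByExpr (17287) were tested with edgeR 4.0.16 in R 4.3.3, with TMM factors of 0.952, 1.02 and 1.03 on the full library totals. DESeq2 1.42.0 was an alternative. The siUSP16 libraries differed by a chi-square of 62.5 per degree of freedom over genes, so both were kept. The control differed by 43.4 from siUSP16 library 1 and by 67.7 from siUSP16 library 2. Over all genes the siUSP16 libraries thus differed more from each other than library 1 did from the control. Copies were aligned with Biopython 1.88.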

Additional observations from a re-analysis of the deposited data

How the results depend on the processing

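No paired analysis was possible because there was 1 control library. Of 150 recomputed values for single members, 147 kept their direction. Many of these could hardly change. Prior counts of 10 and 0.5 barely move counts of this size, and their values are means of the siUSP16 libraries, not fitted ones. Median-ratio and nuclear-reference scaling lay close to the main fit. No test was run for the values without 1 siUSP16 library, so only direction could be compared there. With library totals alone the fitted log2 fold change of MT-ND6 went from -0.09 to 0.0207 and that of MT-CYB from -0.05 to 0.0616. Without 1 siUSP16 library MT-ND6 ranged from -0.58 to 0.27. The count of members past the threshold was 0 under every alternative run. Library totals alone moved the median of all genes to 0.10 and 0.11 in the siUSP16 libraries. There the members' median was -0.21 in place of -0.31, with the control above both siUSP16 libraries for 10 members and below both for 2, against 26.1% and 40.7% of all genes. With a minimum mean of 100 counts the median was -0.27, and the control lay above both for 11 members, against 33% of all genes. The other alternatives kept 13, against 33.4% to 33.6% of all genes. Leaving out 1 siUSP16 library gave 13 to 14 members below the control, against 50.3% and 49.9% of all genes, and medians of -0.34 to -0.29. The mean share in the siUSP16 libraries minus that of the control was -1.19 percentage points, -1.45 without the 100 most counted nuclear genes, -1.26 with nuclear copies counted in, and -1.40 with nuclear counts as the denominator, which was chosen after seeing the data. It was -1.23 to -1.14 without 1 siUSP16 library. The single control library limits every comparison. Member counts were not low, with 2144 the lowest, but some genes of the lists had few counts, such as TEFM with 110 in the control.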
